A study of Mus musculus with 18 samples.

Results

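Kupffer cells are the macrophages that live inside the sinusoids of the liver, where they clear particles, microbes and spent cells from portal blood. They depend on signalling through the receptor CSF1R, and they carry a set of surface receptors and secreted proteins that few other liver cells make. 10 such genes, out of 24394 gene rows in the count table, were chosen by symbol and described across all livers. They are the C-type lectin Clec4f, the complement receptor Vsig4, the phosphatidylserine receptor Timd4, the secreted protein Cd5l, the scavenger receptor Marco, the growth factor receptor Csf1r, the F4/80 gene Adgre1, and the genes of the C1q chains, C1qa, C1qb and C1qc. All 10 were in the table and all 10 passed the filter on low counts, with between 31 and 6090 reads per library.

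RNA was sequenced from 18 whole mouse livers in 3 groups of 6. The first group were tumour-bearing Alb-Cre+/+;Stat3f/f mice, in which Cre recombinase is made under the albumin promoter and so deletes floxed Stat3 in hepatocytes (hereafter Stat3-deleted tumour livers). The second were tumour-bearing WT mice (replicates called WT tumour replicates) and the third control WT mice. The labels of all 18 samples, the control WT ones included, list the line PDA.69, a pancreatic cancer line from KPC mice, and they give no sex, age, tumour site or time since implantation. No Stat3-deleted group without a tumour was analysed here. By the design of the albumin-driven Cre, Kupffer cells keep their own Stat3, and a whole liver holds mostly hepatocyte RNA.

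Each library was a 3′ tag library, which places reads near the 3′ end of a transcript, so that counts of different genes were not compared with each other as levels. Totals were 7222882 to 9545442 reads in Stat3-deleted tumour livers, 6168658 to 8850200 in tumour-bearing WT livers and 5212265 to 7159148 in control WT livers. Stat3 itself was at 99.4 to 132 CPM (reads of a gene relative to the scaled total of its library) in Stat3-deleted tumour livers, at 163 to 264 CPM in tumour-bearing WT livers and at 93.6 to 148 CPM in control WT livers. A 3′ tag may lie outside the floxed part, so the Stat3 level does not check the deletion. Leading numbers in the labels fall into a lower and a higher run. Both WT groups have replicates 1 to 3 in the lower run and 4 to 6 in the higher run, and all 6 Stat3-deleted tumour livers are in the lower one. The labels do not say whether livers came from separate cages or experiments, so p-values measure the spread between these samples. Higher levels of these genes in bulk liver RNA can come from more Kupffer cells or from more RNA per cell, and the 2 cannot be told apart here.

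The label was checked against the other genes of the tissue. Kupffer cell markers were detected in every liver, with their sum at 845 to 2267 CPM in Stat3-deleted tumour livers, 844 to 2017 CPM in tumour-bearing WT livers and 480 to 1240 CPM in control WT livers. All 13 other genes enriched in Kupffer cells that were looked up, such as Folr2, Fcna and Cd163, also passed the filter. Clec4f and Timd4, which mark resident Kupffer cells rather than newly arrived monocytes, had at least 342 and 31 reads in every library. Csf1r, Adgre1 and the C1q genes are shared with other macrophages, so their reads need not all come from Kupffer cells.

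Promoter sequences were matched for 7 of the 10 genes by symbol in RefSeq (GRCm38.p6, which is mm10). The 200 bases before the start in that table are shown, 5′ to 3′ on the strand of the gene, for Vsig4, Cd5l and C1qc, the genes that passed the test in a comparison below, and for C1qb, the neighbour of C1qc. Capitals mark the core of the motif of PU.1, the macrophage factor encoded by Spi1 (GAGGAA, or TTCCTC on the opposite strand).
Vsig4, chrX:96293439-96293638, minus strand: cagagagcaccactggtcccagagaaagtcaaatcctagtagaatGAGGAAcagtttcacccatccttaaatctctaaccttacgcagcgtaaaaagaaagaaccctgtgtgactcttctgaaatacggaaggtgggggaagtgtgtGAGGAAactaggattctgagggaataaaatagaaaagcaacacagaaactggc
Cd5l, chr3:87357681-87357880, plus strand: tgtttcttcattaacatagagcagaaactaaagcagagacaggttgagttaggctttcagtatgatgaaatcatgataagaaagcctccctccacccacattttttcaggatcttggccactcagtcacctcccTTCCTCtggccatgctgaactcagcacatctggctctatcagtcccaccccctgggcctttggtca
C1qb, chr4:136886201-136886400, minus strand: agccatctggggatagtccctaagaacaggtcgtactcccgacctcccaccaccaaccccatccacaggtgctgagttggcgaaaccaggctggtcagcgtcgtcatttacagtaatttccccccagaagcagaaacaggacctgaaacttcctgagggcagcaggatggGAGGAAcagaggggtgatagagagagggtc
C1qc, chr4:136892915-136893114, minus strand: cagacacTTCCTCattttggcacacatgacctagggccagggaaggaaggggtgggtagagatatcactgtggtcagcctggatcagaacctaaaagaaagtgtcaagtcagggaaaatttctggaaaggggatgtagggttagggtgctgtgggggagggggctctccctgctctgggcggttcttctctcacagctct
The core stood 155 and 53 bases before the start of Vsig4, 66 before Cd5l, 30 before C1qb and 193 before C1qc, counted to its first base from the start in the promoter table. That start is 136892914 for C1qc, while the span of the gene in RefSeq, given with the other C1q genes, begins 22 bases farther upstream on its strand, so the last 22 bases shown for C1qc lie within that span. The 2 starts were the same for Vsig4, Cd5l and C1qb. Over windows from 250 bases before to 50 after the start, 5 of the 7 promoters held the core, the fifth being that of Marco, against 28.1% of 32544 promoters in RefSeq. The half-site TGCTGA of the MAF factors, which Kupffer cells express, was in 5 of 7, against 19.5% of all promoters. The STAT letters TTCNNNGAA were in 0 of 7, against 8.33%. Both strands were searched, and the PU.1 core and the MAF half-site can share letters at their ends. Such matches describe these windows and do not show binding.

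The surface receptors of Kupffer cells were lowest on average in control WT livers and lay close together in the 2 tumour-bearing groups. Vsig4, which binds complement fragments on blood-borne particles, was at 59.8, 80.7, 94.1, 81.0, 114.6 and 46.3 CPM in the 6 Stat3-deleted tumour livers. It was at 73.3, 70.4, 99.2, 120.7, 67.5 and 70.8 CPM in tumour-bearing WT livers and at 38.5, 50.6, 54.3, 37.6, 56.6 and 22.8 CPM in control WT livers. Every tumour-bearing WT liver lay above every control WT liver, while the lowest Stat3-deleted tumour liver lay among the control WT livers. Means were 79.4 ± 24.2 CPM in Stat3-deleted tumour livers, 83.7 ± 21.6 CPM in tumour-bearing WT livers and 43.4 ± 12.8 CPM in control WT livers (SD, n = 6 each).

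Marco, a scavenger receptor for bacteria and particles, varied most between livers. It was at 91.0, 87.4, 109.2, 117.9, 249.4 and 39.8 CPM in Stat3-deleted tumour livers and at 61.7, 62.2, 144.0, 159.5, 67.0 and 45.1 CPM in tumour-bearing WT livers. In control WT livers it was at 25.9, 64.4, 118.2, 21.8, 18.6 and 21.3 CPM. 4 of the control WT livers lay below all livers of both tumour-bearing groups, and the other 2 lay among them. Control WT livers had 25.9 to 118 CPM of Marco in the lower run of label numbers and 18.6 to 21.8 CPM in the higher run. The highest liver was 6.26 times the lowest in Stat3-deleted tumour livers, 3.54 times in tumour-bearing WT livers and 6.34 times in control WT livers.

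Clec4f, a galactose-binding lectin made almost exclusively by Kupffer cells, overlapped in all groups. Its mean was 103 ± 29.6 CPM in Stat3-deleted tumour livers, 118 ± 40.9 CPM in tumour-bearing WT livers and 79.4 ± 23.8 CPM in control WT livers (SD, n = 6 each). Its lowest value of all, 51.8 CPM, was in a tumour-bearing WT liver (replicate 6), below the lowest control WT liver at 59.6 CPM. Timd4, which marks long-lived resident cells and binds dying cells, averaged 15.6 ± 4.01 CPM in Stat3-deleted tumour livers, 14.1 ± 4.44 CPM in tumour-bearing WT livers and 10.8 ± 5.66 CPM in control WT livers (SD, n = 6 each). The highest control WT liver had 20.6 CPM of Timd4, more than 5 of the 6 Stat3-deleted tumour livers.

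Csf1r, the receptor through which macrophages survive, was at 167.7, 135.9, 167.1, 164.1, 347.8 and 103.4 CPM in Stat3-deleted tumour livers. It was at 98.1, 122.3, 178.0, 243.1, 198.5 and 108.2 CPM in tumour-bearing WT livers and at 76.2, 95.6, 157.3, 46.0, 151.0 and 55.3 CPM in control WT livers. 1 Stat3-deleted tumour liver (replicate 5) stood above all others, and 2 control WT livers lay within the range of both tumour-bearing groups. Adgre1, the F4/80 adhesion receptor, overlapped between all groups, at 40.9 ± 14.6 CPM in Stat3-deleted tumour livers, 44.3 ± 16.7 CPM in tumour-bearing WT livers and 34.5 ± 14.3 CPM in control WT livers (SD, n = 6 each).

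The secreted products followed the same order, with control WT livers lowest on average. Cd5l, a macrophage-derived scavenger protein of plasma, was at 331.7, 353.4, 442.7, 364.8, 668.9 and 218.6 CPM in Stat3-deleted tumour livers. It was at 247.3, 364.6, 436.0, 644.7, 325.3 and 226.3 CPM in tumour-bearing WT livers and at 182.9, 252.2, 306.2, 114.1, 204.3 and 98.7 CPM in control WT livers. 4 control WT livers lay below every liver of both tumour-bearing groups. Control WT livers had 183 to 306 CPM of Cd5l in the lower run of label numbers and 98.7 to 204 CPM in the higher run, which overlap. Its means were 397 ± 152 CPM in Stat3-deleted tumour livers, 374 ± 153 CPM in tumour-bearing WT livers and 193 ± 79.6 CPM in control WT livers (SD, n = 6 each).

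The 3 chains of C1q, the recognition protein of the classical complement pathway, are encoded by neighbouring genes on chromosome 4 of mm10, C1qb at 136880126 to 136886200, C1qc at 136889801 to 136892936 and C1qa at 136895916 to 136898844. C1qc was at 68.1, 83.3, 75.6, 62.7, 92.1 and 70.3 CPM in Stat3-deleted tumour livers and at 54.3, 71.5, 83.8, 79.3, 47.6 and 52.2 CPM in tumour-bearing WT livers. In control WT livers it was at 51.2, 59.4, 55.0, 40.6, 41.9 and 31.0 CPM. Every Stat3-deleted tumour liver lay above every control WT liver, and the tumour-bearing WT livers overlapped with both. Of the 10 genes C1qc varied least between replicates, with an SD of 14.3% of the mean in Stat3-deleted tumour livers, 23.7% in tumour-bearing WT livers and 22.6% in control WT livers. C1qb averaged 186 ± 54.0 CPM in Stat3-deleted tumour livers, 190 ± 59.8 CPM in tumour-bearing WT livers and 111 ± 46.7 CPM in control WT livers (SD, n = 6 each). C1qa averaged 194 ± 46.9 CPM in Stat3-deleted tumour livers, 166 ± 45.3 CPM in tumour-bearing WT livers and 135 ± 41.7 CPM in control WT livers (SD, n = 6 each). C1qa and C1qb overlapped between all groups.

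**Figure D1:**
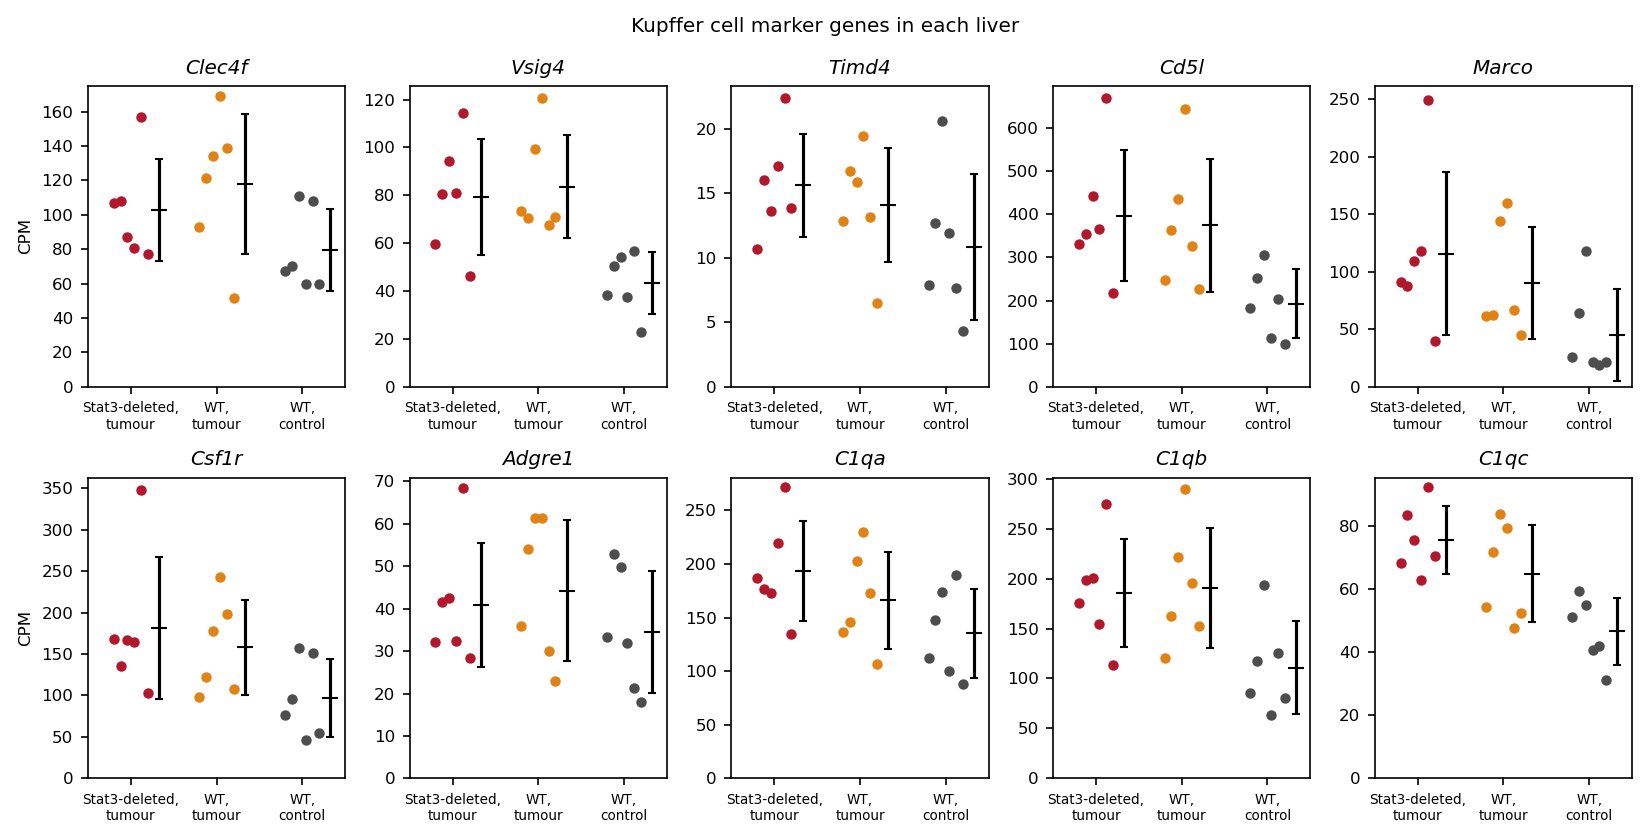
CPM of each Kupffer cell marker gene in each liver (1 panel per gene, y axis from 0, points ordered by replicate number from left to right within a group), with the group mean and SD of 6 livers as a black bar. The control WT livers have the lowest mean in all 10 panels, and the fifth Stat3-deleted tumour liver is the highest of its group in all 10.

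Tumour-bearing WT livers were compared with control WT livers to ask how a tumour changes these genes in the liver. All 10 were higher on average, by a median of 0.64 on the log2 scale, against 0.004 over the 11218 genes tested. Vsig4 rose by 0.95 on the log2 scale (95% interval 0.49 to 1.41, SE 0.22, edgeR quasi-likelihood adjusted p = 0.0237), and all 6 livers were above the control mean. It was the 1 gene of the 10 called, against a background of 1.76% of genes called higher, 0.49% called lower and 2.25% called in either direction, and the 1 whose groups did not overlap, against 1.05% of genes. A log2 fold change above 0 was found for 10 of 10, against 50.6% of genes. 7 of the 10 had an unadjusted p under 0.05, against 8.63% of genes that were also higher and 16.2% in either direction, and 6 of 10 had a log2 fold change of at least 0.5, against 10.4%.

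The other 9 did not pass the test. The largest of these log2 fold changes were 1.00 for Marco (95% interval 0.07 to 1.94, adjusted p = 0.271), 0.95 for Cd5l (0.36 to 1.55, adjusted p = 0.0855) and 0.78 for C1qb (0.27 to 1.29, adjusted p = 0.105), all by edgeR. Csf1r differed by 0.71, Clec4f by 0.57, C1qc by 0.48, Timd4 by 0.39, Adgre1 by 0.36 and C1qa by 0.30. The intervals of Timd4, Adgre1 and C1qa included 0. The call on Vsig4 was lost without WT tumour replicate 3 (edgeR adjusted p = 0.0680) or 4 (0.0810) and without control WT replicate 1 (0.0576), 4 (0.0598) or 6 (0.0575), and with library totals in place of scaled ones (0.75, adjusted p = 0.0682). Within the lower run of label numbers Vsig4 differed by 0.75 (edgeR adjusted p = 0.193). Within the higher run it differed by 1.14 (edgeR adjusted p = 0.194). The median of the 10 genes was 0.34 and 0.91, with all 10 above 0 in both runs. The share of all genes above 0 within a run is not given here. In the lower run Marco averaged 89.3 CPM in tumour-bearing WT and 69.5 CPM in control WT livers. In the higher run it averaged 90.5 and 20.6 CPM. In the same order Cd5l averaged 349 and 247 CPM in the lower run and 399 and 139 CPM in the higher run. C1qb averaged 168 and 132 CPM, and 213 and 89.8 CPM. The part of the run in these levels was not tested.

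Stat3-deleted tumour livers were compared with tumour-bearing WT livers to ask whether loss of Stat3 in hepatocytes changes these genes under a tumour. 0 of the 10 passed the test by edgeR, DESeq2 or limma voom, against a background of 6.12% of genes called in either direction by edgeR, 2.89% higher and 3.23% lower. 0 of the 10 had an unadjusted p under 0.05, against 19.4% of genes in either direction and 8.7% that were also higher. 0 of the 10 had groups that did not overlap with the Stat3-deleted tumour livers on top, against 1.4% of genes, and 0 had a log2 fold change of at least 0.5, against 7.21%. Their log2 differences had a median of 0.12, against -0.03 over all genes, and ran between -0.20 for Clec4f and 0.36 for Marco, with 6 above 0 and 4 below, against 45.9% of genes above 0. These values do not show that the groups are alike. The 95% interval of the log2 difference was -0.13 to 0.57 for C1qc, the narrowest, -0.53 to 0.38 for Vsig4, -0.69 to 0.29 for Clec4f, -0.51 to 0.67 for Cd5l and -0.55 to 1.28 for Marco, the widest. Without Stat3-deleted tumour replicate 5 the median was -0.11, with 3 of 10 above 0. Within the lower run of label numbers 6 Stat3-deleted tumour livers stood against 3 tumour-bearing WT livers. There the median was 0.14, and again 0 of the 10 passed by adjusted or unadjusted p. Shares of all genes above 0 or at an unadjusted p under 0.05 are not given for this fit or the one without replicate 5.

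Stat3-deleted tumour livers were also set against control WT livers, a comparison that shares its control livers with the first one above and its tumour livers with the second. All 10 genes were higher on average, with a median log2 fold change of 0.72, against -0.009 over all genes. 10 of 10 were above 0, against 49.1% of genes. 3 of the 10 rose, against a background of 2.19% of genes called higher, 2.66% called lower and 4.85% called in either direction. C1qc rose by 0.70 on the log2 scale (95% interval 0.34 to 1.05, SE 0.17, edgeR adjusted p = 0.0213), Vsig4 by 0.87 (0.41 to 1.33, SE 0.22, adjusted p = 0.0266) and Cd5l by 1.04 (0.44 to 1.64, SE 0.29, adjusted p = 0.0393). All 6 livers were above the control mean for each of them. C1qc was the 1 gene whose groups did not overlap, against 1.98% of genes.

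7 of the 10 had an unadjusted p under 0.05, against 9.35% of genes that were also higher and 20.8% in either direction, and 8 had a log2 fold change of at least 0.5, against 8.59%. Marco differed by 1.37 (95% interval 0.43 to 2.31, edgeR adjusted p = 0.0820), C1qb by 0.75 (0.23 to 1.26, adjusted p = 0.0820) and Csf1r by 0.90 (0.26 to 1.54, adjusted p = 0.0930). C1qa differed by 0.52, Timd4 by 0.53, Clec4f by 0.37 and Adgre1 by 0.25. Of these 4, the intervals of Timd4, Clec4f and Adgre1 included 0.

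Each of the 3 calls was lost without any 1 of several livers. The call on C1qc was lost without Stat3-deleted tumour replicate 2 (edgeR adjusted p = 0.0568) or 5 (0.0605) or control WT replicate 4 (0.0574). That on Vsig4 was lost without Stat3-deleted tumour replicate 2 (0.0557), 3 (0.0657) or 5 (0.0793) or control WT replicate 1 (0.0576), 4 (0.0642) or 6 (0.0520). That on Cd5l was lost without Stat3-deleted tumour replicate 2 (0.0636), 3 (0.0796) or 5 (0.119) or control WT replicate 1 (0.0735), 4 (0.0923), 5 (0.0639) or 6 (0.0812). With library totals in place of scaled ones the log2 fold changes were 0.57 for C1qc (adjusted p = 0.0792), 0.74 for Vsig4 (adjusted p = 0.0570) and 0.90 for Cd5l (adjusted p = 0.0740), and none was called. All 6 Stat3-deleted tumour livers are in the lower run of label numbers. Against the 3 control WT livers of that run the median of the 10 genes was 0.47, with 9 above 0. There 0 of the 10 passed the test by edgeR, with 4 at an unadjusted p under 0.05. The shares of all genes above 0 or at that p are not given for this fit. Vsig4 differed there by 0.73 (edgeR adjusted p = 0.104), Cd5l by 0.68 (adjusted p = 0.181) and C1qc by 0.45 (adjusted p = 0.135), while Adgre1 was at -0.15. That comparison has 3 control livers in place of 6, and the part of the run in the larger values of the full comparison was not tested.

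**Figure D2:**
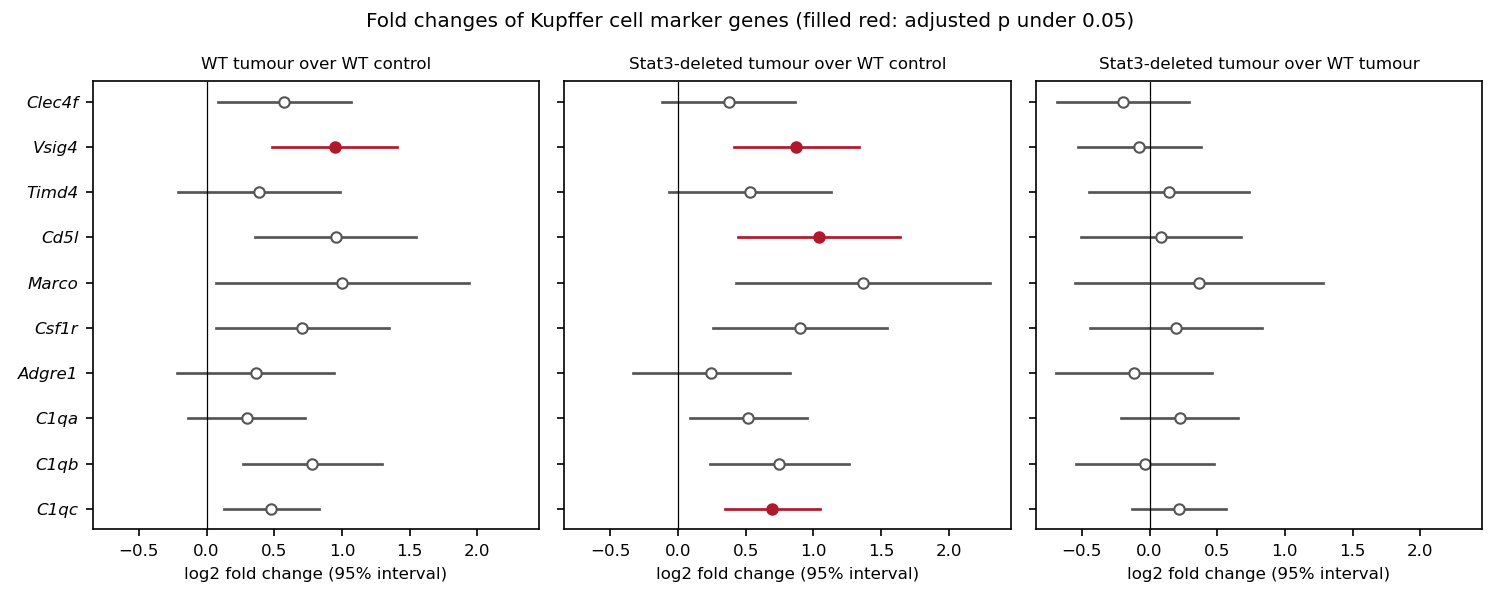
Log2 fold change of each Kupffer cell marker gene (x axis) with its 95% interval from the edgeR fit of 18 livers, for tumour-bearing WT over control WT (left), Stat3-deleted tumour over control WT (middle) and Stat3-deleted tumour over tumour-bearing WT (right). Filled red points passed the test, 1 in the left panel, 3 in the middle and 0 in the right, where every interval spans 0.

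Livers of 1 group differed from each other in the same direction for most of the 10 genes. Replicate 5 of the Stat3-deleted tumour livers was the highest of its group for 10 of 10 genes, and replicate 6 the lowest for 8. Among tumour-bearing WT livers replicate 4 was the highest for 9 and replicate 6 the lowest for 6. Among control WT livers replicate 3 was the highest for 6 and replicate 6 the lowest for 6. The summed level was 2267 CPM in the highest and 845 CPM in the lowest Stat3-deleted tumour liver, 2017 and 844 CPM in tumour-bearing WT livers, and 1240 and 480 CPM in control WT livers. The highest control WT liver was thus close to the median of both tumour-bearing groups, 1288 CPM in Stat3-deleted tumour livers and 1224 CPM in tumour-bearing WT livers.

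After the mean of each group was taken off, log2 CPM correlated between all 45 pairs of genes, with Pearson's r of 0.49 to 0.92 and a median of 0.73 over 18 livers. These values are descriptions: the genes share their libraries, depth and scaling. For each pair, r was also computed without the 2 livers farthest from the median of its first gene, so the livers left out differ between pairs. These values ran between 0.37 and 0.92, with a median of 0.67. Csf1r went closest with C1qa (0.92) and C1qb (0.92), and Cd5l went with C1qb (0.90). Adgre1 went closest with C1qc (0.91) and less with Csf1r (0.50). Among the 3 C1q chains r was 0.83 for C1qa with C1qb, 0.60 for C1qb with C1qc and 0.57 for C1qa with C1qc.

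**Figure D3:**
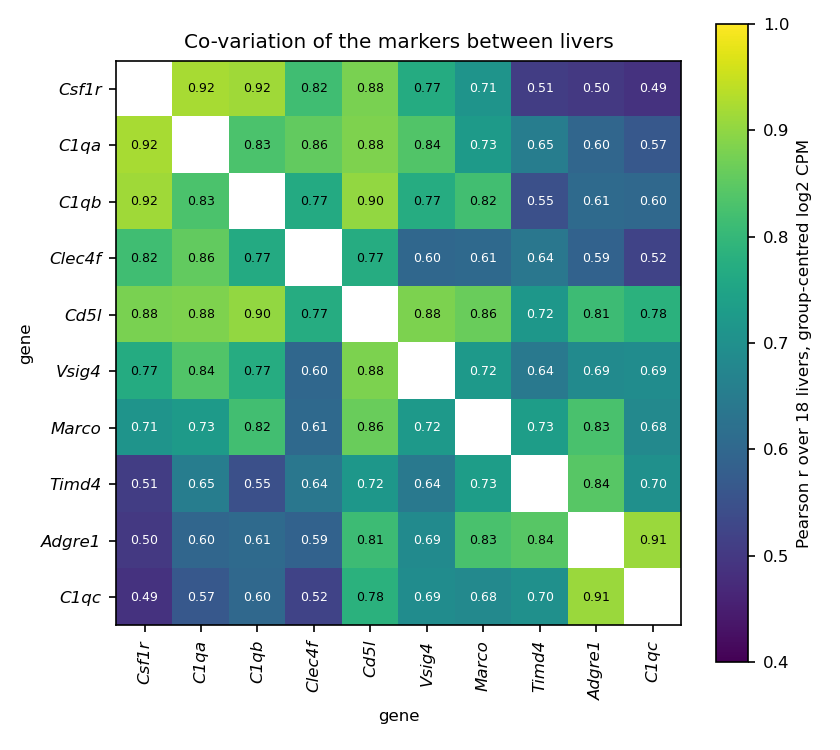
Pearson's r between each pair of Kupffer cell marker genes over 18 livers, computed on log2 CPM after the mean of each group was subtracted (colour scale and printed value, genes on both axes). Csf1r with C1qa and with C1qb has the highest values, 0.92 each, and Csf1r with C1qc has the lowest, 0.49.

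Ratios between genes within a library, picked after their values were seen and given without a test, are set beside these correlations. Csf1r over Adgre1 was 3.27 to 5.21 in Stat3-deleted tumour livers, 2.26 to 6.60 in tumour-bearing WT livers and 1.44 to 7.11 in control WT livers, with the last maximum in control WT replicate 5. Among tumour-bearing WT livers this ratio was 2.26 to 2.90 in the lower run of label numbers and 3.97 to 6.60 in the higher run, while among control WT livers it was 1.80 to 3.16 in the lower and 1.44 to 7.11 in the higher run, which overlap. Cd5l over C1qa was 1.63 to 2.55 in Stat3-deleted tumour livers, 1.81 to 2.80 in tumour-bearing WT livers and 1.07 to 1.76 in control WT livers. Control WT livers had 1.63 to 1.76 in the lower run and 1.07 to 1.14 in the higher run. Tumour-bearing WT livers had 1.81 to 2.50 in the lower run and 1.88 to 2.80 in the higher run, so the runs overlapped there and not in control WT livers. Marco over Clec4f was 0.52 to 1.59 in Stat3-deleted tumour livers, 0.48 to 1.07 in tumour-bearing WT livers and 0.17 to 1.06 in control WT livers. Control WT livers had 0.38 to 1.06 in the lower run and 0.17 to 0.37 in the higher run, which do not overlap. Tumour-bearing WT livers had 0.51 to 1.07 in the lower run and 0.48 to 0.94 in the higher run, which overlap. The part of the run in these ratios was not tested.

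**Figure D4:**
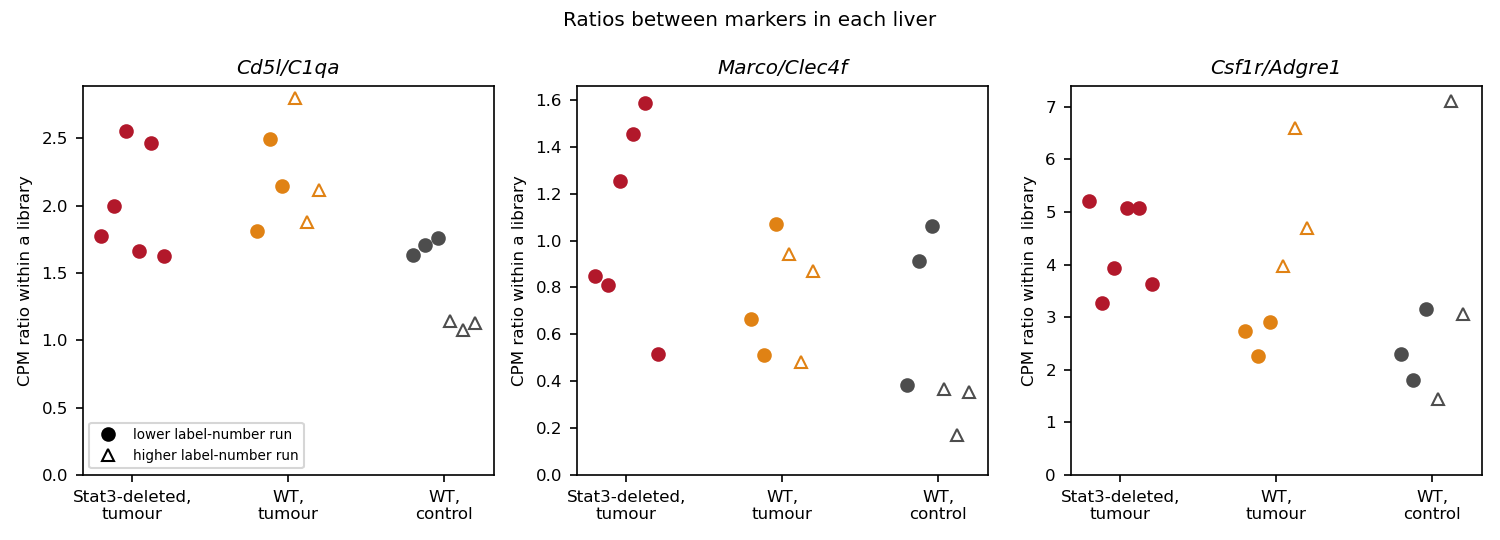
Ratio of CPM between 2 markers within each library (y axis from 0) for Cd5l over C1qa, Marco over Clec4f and Csf1r over Adgre1, by group, with filled circles for the lower and open triangles for the higher run of label numbers. The 3 control WT livers of the higher run have the lowest Cd5l over C1qa ratios, 1.07 to 1.14.

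Across the same 18 livers, the genes outside the set most like the mean of the 10 were Aif1 (Pearson's r 0.95), Gngt2 (0.94), Cybb (0.93), Ms4a6b (0.92), Spi1 (0.91), Hk1 (0.90), Clec4n (0.90), Tyrobp (0.90), AI662270 (0.89) and Epsti1 (0.89), on log2 CPM centred on the group means. Aif1 encodes a calcium-binding protein of macrophages, Cybb the catalytic chain of the phagocyte oxidase and Tyrobp a signalling adaptor of myeloid receptors. Spi1, whose product PU.1 is the factor whose motif core is marked in the promoters above, was at 11.6 ± 5.82 CPM in Stat3-deleted tumour livers, 13.2 ± 3.93 CPM in tumour-bearing WT livers and 6.54 ± 3.90 CPM in control WT livers (SD, n = 6 each). It did not pass the test in tumour-bearing WT against control WT livers (log2 fold change 1.02, edgeR adjusted p = 0.137) or in Stat3-deleted tumour against control WT livers (0.84, adjusted p = 0.169). For single genes, the one with the highest r was Pea15a for Clec4f (0.92), Vav1 for Vsig4 (0.89), Slamf8 for Timd4 (0.93), Gngt2 for Cd5l (0.94), Il18bp for Marco (0.91), Apbb1ip for Adgre1 (0.92) and Fcer1g for C1qb (0.94). For Csf1r and C1qa it was the other of the pair (0.92), and for C1qc it was Adgre1 (0.91).

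Of 13 other genes enriched in Kupffer cells, 4 rose in tumour-bearing WT against control WT livers and 0 fell, with a median log2 fold change of 0.69. They were Clec1b (1.04, adjusted p = 0.00905), the podoplanin receptor; Cd163 (1.25, adjusted p = 0.0237), the haemoglobin scavenger receptor; Il18bp (1.27, adjusted p = 0.0237), the soluble inhibitor of interleukin 18; and the chemokine Ccl24 (1.12, adjusted p = 0.0244), all by edgeR. The call on Clec1b held in all 18 fits that each left out 1 library. Those on Cd163, Il18bp and Ccl24 were lost without WT tumour replicate 3 or 4, without control WT replicate 6 and without further control WT replicates (2 and 4 for Cd163, 1, 4 and 5 for Il18bp, 2 and 5 for Ccl24), at adjusted p = 0.0528 to 0.0946. In Stat3-deleted tumour against control WT livers 1 of the 13 rose, Il18bp (1.29, edgeR adjusted p = 0.0161, and 0.0531 without Stat3-deleted tumour replicate 5), with a median of 0.62. In Stat3-deleted against WT tumour livers 0 of the 13 passed the test by edgeR, 1 had an unadjusted p under 0.05, and the median was -0.26.

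Transcription factors of Kupffer cell identity moved less as a list. Of 12, 0 passed the test in tumour-bearing WT against control WT livers (median 0.12 on the log2 scale, 2 at an unadjusted p under 0.05 by edgeR). Zeb2 fell by 0.85 in Stat3-deleted tumour against control WT livers (edgeR adjusted p = 0.0266), a call lost without Stat3-deleted tumour replicate 1, 3, 5 or 6 or control WT replicate 4 or 5 (adjusted p = 0.0535 to 0.0654).

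Of 12 genes for CSF1R ligands and other niche signals, 10 were tested. Csf1 averaged 4.47 ± 1.01 CPM in Stat3-deleted tumour livers, 7.23 ± 2.34 CPM in tumour-bearing WT livers and 4.83 ± 1.51 CPM in control WT livers, and Il34 averaged 9.10 ± 2.60 CPM in Stat3-deleted tumour livers, 8.14 ± 2.55 CPM in tumour-bearing WT livers and 7.30 ± 3.09 CPM in control WT livers (SD, n = 6 each). Neither ligand, both chosen after their values were seen, passed the test in any comparison by edgeR. Csf2rb, the shared beta chain of the GM-CSF receptor, rose in tumour-bearing WT against control WT livers (1.18, edgeR adjusted p = 0.0409), a call lost without Stat3-deleted tumour replicate 1 or 2, WT tumour replicate 3, 4 or 6, or control WT replicate 1, 2, 3, 4 or 6, at adjusted p = 0.0502 to 0.123. Csf2ra, its alpha chain, rose in Stat3-deleted tumour against control WT livers (1.17, edgeR adjusted p = 0.0268), a call lost without Stat3-deleted tumour replicate 1, 2 or 3, or control WT replicate 1, 4, 5 or 6, at adjusted p = 0.0509 to 0.0654.

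Among 15 genes for partners and regulators of C1q, 13 were tested, and hepatocytes make many of these proteins. In tumour-bearing WT against control WT livers 5 rose and 0 fell, with C4b at 1.23 (edgeR adjusted p = 0.000257), C3 at 1.04 (adjusted p = 0.00181) and Serping1, the C1 inhibitor, at 0.91 (adjusted p = 0.00325) among them. In Stat3-deleted against WT tumour livers 4 fell and 0 rose, among them C3, which fell by 1.19, C4b, which fell by 1.04, and C4a, which fell by 0.87 on the log2 scale, the last lost in 14 of 18 fits that each left out 1 library, at adjusted p = 0.0502 to 0.108 (it held only without Stat3-deleted tumour replicate 5, WT tumour replicate 1, or control WT replicate 2 or 3). The 3 C1q genes did not pass the test there, with log2 differences of 0.22 for C1qa, -0.03 for C1qb and 0.22 for C1qc. Cd93, an endothelial and myeloid receptor once described as a C1q receptor, rose in both comparisons with control WT livers, by 0.76 in tumour-bearing WT livers (edgeR adjusted p = 0.0291) and by 0.79 in Stat3-deleted tumour livers (adjusted p = 0.0174).

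A list of 21 genes for scavenger and phagocytic receptors also holds secreted ligands and bridging proteins (Gas6, Pros1, Mfge8) and a signalling chain of Fc receptors (Fcer1g), and 20 of the 21 were tested. In tumour-bearing WT against control WT livers 4 rose, with a median of 0.54 over the list, namely Fcgr3 (1.00, edgeR adjusted p = 0.0181), Msr1 (0.94, adjusted p = 0.0244), Gas6, a secreted ligand of the receptors Mertk and Axl (1.75, adjusted p = 0.0315) and Fcer1g (1.00, adjusted p = 0.0488). The call on Fcgr3 was lost without WT tumour replicate 3 or 4 or control WT replicate 4 or 6 (adjusted p = 0.0506 to 0.0672), and that on Msr1 without WT tumour replicate 2, 3 or 4 or control WT replicate 2, 5 or 6 (0.0521 to 0.0797). That on Gas6 was lost without WT tumour replicate 3 or 6 or control WT replicate 1, 3, 4, 5 or 6 (0.0528 to 0.116). That on Fcer1g was lost without 13 of the 18 libraries (0.0502 to 0.131), and held only without Stat3-deleted tumour replicate 5 or 6, WT tumour replicate 1 or 2, or control WT replicate 3. In Stat3-deleted tumour against control WT livers 1 rose, the endotoxin co-receptor Cd14 (1.76, edgeR adjusted p = 0.00935), with a median of 0.20. In Stat3-deleted against WT tumour livers 0 of the 20 passed the test by edgeR, 5 had an unadjusted p under 0.05, and the median was -0.22.

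Markers of other cells were read beside these results, since they share the tissue. The summed level of 16 genes common to macrophages was 527 to 749 CPM in Stat3-deleted tumour livers, 488 to 813 CPM in tumour-bearing WT livers and 289 to 659 CPM in control WT livers. Of these 16, 1 rose in tumour-bearing WT against control WT livers (Ctsc, 0.94, edgeR adjusted p = 0.0185, and 0.0530 to 0.0606 without WT tumour replicate 3 or control WT replicate 4). 3 rose in Stat3-deleted tumour against control WT livers, Cd68 by 1.14, Laptm5 by 0.83 and Mpeg1 by 1.01. Each of these calls was lost without Stat3-deleted tumour replicate 5 or control WT replicate 1, 4 or 6, and without further livers (Stat3-deleted tumour replicate 3 and control WT replicate 5 for Cd68, Stat3-deleted tumour replicates 2 and 3 for Laptm5, Stat3-deleted tumour replicates 1 and 2 and control WT replicate 5 for Mpeg1), at edgeR adjusted p = 0.0531 to 0.0951. In Stat3-deleted against WT tumour livers 0 of the 16 passed by edgeR, and 5 had an unadjusted p under 0.05.

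Markers of recruited monocytes and macrophages had another order. Their 15 genes summed to 481 to 619 CPM in Stat3-deleted tumour livers, 970 to 2199 CPM in tumour-bearing WT livers and 510 to 774 CPM in control WT livers. Most of that sum is Fn1, a matrix protein that hepatocytes also secrete, at 498 ± 40.4 CPM in Stat3-deleted tumour livers, 1247 ± 437 CPM in tumour-bearing WT livers and 577 ± 103 CPM in control WT livers (SD, n = 6 each). Ccr2, the chemokine receptor of inflammatory monocytes, was at 1.03 to 7.24 CPM in Stat3-deleted tumour livers, 2.56 to 7.35 CPM in tumour-bearing WT livers and 1.67 to 4.84 CPM in control WT livers. Of the 12 tested, Fn1 and Trem2 rose in tumour-bearing WT against control WT livers, the call on Trem2 being lost without WT tumour replicate 3, 4 or 6 or control WT replicate 1, 4, 5 or 6 (edgeR adjusted p = 0.0591 to 0.0935). Trem2 was near the floor, with 0 to 8 reads per library in control WT livers and 3 to 37 in tumour-bearing WT livers. Fn1, Spp1 and Cd9 fell in Stat3-deleted against WT tumour livers, the call on Cd9 being lost without Stat3-deleted tumour replicate 3, 4, 5 or 6 or WT tumour replicate 1, 2, 3 or 6 (edgeR adjusted p = 0.0524 to 0.0940). Chil3, chosen with Ccr2 after their values were seen, was at 0 in 1 Stat3-deleted tumour liver, 2 tumour-bearing WT livers and 5 control WT livers.

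Neutrophil markers summed to 43.8 to 123 CPM in Stat3-deleted tumour livers, 87.7 to 405 CPM in tumour-bearing WT livers and 29.5 to 84.5 CPM in control WT livers. Of them, 4 of 6 tested rose in tumour-bearing WT against control WT livers, and 5 of 6 fell in Stat3-deleted against WT tumour livers. The rise of Ngp was lost without WT tumour replicate 3 (edgeR adjusted p = 0.0608). Ngp was near the floor, with 0 to 7 reads per library in control WT livers and 1 to 73 in tumour-bearing WT livers. The fall of Il1b was lost without Stat3-deleted tumour replicate 1 or 4 or WT tumour replicate 3 or 4 (edgeR adjusted p = 0.0600 to 0.0811). Markers of liver sinusoidal endothelium, the cells beside which Kupffer cells sit, summed to 807 to 947 CPM in Stat3-deleted tumour livers, 716 to 968 CPM in tumour-bearing WT livers and 667 to 870 CPM in control WT livers. 0 of 15 passed the test by edgeR in tumour-bearing WT against control WT livers (3 at an unadjusted p under 0.05), and 2 rose in Stat3-deleted tumour against control WT livers, Stab2 by 0.70 and Clec4g by 0.69. The call on Stab2 was lost without Stat3-deleted tumour replicate 2, 3 or 5 or control WT replicate 2, 4 or 6 (edgeR adjusted p = 0.0504 to 0.0830), and that on Clec4g without Stat3-deleted tumour replicate 2 or 5 or control WT replicate 4 (0.0532 to 0.0567). Dnase1l3 of this list was called between the tumour groups, averaging 101 CPM in Stat3-deleted and 70.5 CPM in WT tumour livers. That call was lost without Stat3-deleted tumour replicate 1, 3, 5 or 6 or WT tumour replicate 3 or 4 (edgeR adjusted p = 0.0520 to 0.0800). Dendritic cell and lymphocyte markers were low in all groups, at most 14.3 and 50.6 CPM summed, and of the 5 genes tested in each list none passed in any comparison by edgeR, with at most 1 of a list at an unadjusted p under 0.05.

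Markers of peritoneal and splenic macrophages summed to 79.1 to 135 CPM in Stat3-deleted tumour livers, 100.03 to 226 CPM in tumour-bearing WT livers and 71.4 to 135 CPM in control WT livers. Most of that sum is Prg4 and Vcam1, which had different orders. Prg4 averaged 16.2 CPM in Stat3-deleted tumour livers, 103 CPM in tumour-bearing WT livers and 35.1 CPM in control WT livers. Vcam1 averaged 67.5, 49.5 and 34.9 CPM in the same groups. Of 6 tested, Prg4, which encodes a secreted glycoprotein, rose in tumour-bearing WT against control WT livers (1.55, edgeR adjusted p = 0.000456) and fell by 2.67 in Stat3-deleted against WT tumour livers (adjusted p = 3.15e-07). In Stat3-deleted tumour against control WT livers Prg4 fell by 1.12 (edgeR adjusted p = 0.0124), and Treml4 rose (0.88, adjusted p = 0.0468), a call that was lost in 13 of 18 fits that each left out 1 library (0.0516 to 0.113) and held only without Stat3-deleted tumour replicate 1, WT tumour replicate 4, 5 or 6, or control WT replicate 3. Biliary and ductal markers summed to 32.2 to 55.1 CPM in Stat3-deleted tumour livers, 51.2 to 161 CPM in tumour-bearing WT livers and 34.7 to 60.8 CPM in control WT livers. Sox9, a factor of biliary cells, rose in tumour-bearing WT against control WT livers (1.31, edgeR adjusted p = 0.00276) and fell by 1.35 in Stat3-deleted against WT tumour livers (adjusted p = 0.000883).

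Hepatocyte markers summed to 95143 to 111801 CPM in Stat3-deleted tumour livers, 59915 to 128447 CPM in tumour-bearing WT livers and 56456 to 85655 CPM in control WT livers, so the Stat3-deleted tumour livers lay above all control WT livers. Of 10 tested, Ttr, the gene of transthyretin, rose and Apob, that of apolipoprotein B, fell in that comparison, by 0.66 (edgeR adjusted p = 0.0271) and 1.25 (adjusted p = 0.0124) on the log2 scale. The call on Ttr was lost without Stat3-deleted tumour replicate 3 or 5 or control WT replicate 1 or 4 (0.0581 to 0.0730). Stellate cell markers summed to 598 to 1004 CPM in Stat3-deleted tumour livers, 475 to 998 CPM in tumour-bearing WT livers and 546 to 801 CPM in control WT livers. Among them Hgf was called between the tumour groups, averaging 4.86 CPM in Stat3-deleted and 9.25 CPM in WT tumour livers. That call was lost without Stat3-deleted tumour replicate 1, 2, 3 or 6 or WT tumour replicate 1, 2, 3 or 4 (edgeR adjusted p = 0.0535 to 0.0851). The part of any of these cells in the levels of the Kupffer cell genes was not tested.

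2 programmes that hepatocytes also run were read beside the Kupffer cell genes. Of 19 interferon-inducible genes tested, 14 rose in Stat3-deleted against WT tumour livers and 13 in Stat3-deleted tumour against control WT livers, with medians of 1.51 and 1.63, while the 10 Kupffer cell genes had medians of 0.12 and 0.72. The 20 interferon-inducible genes summed to 1302 to 6664 CPM in Stat3-deleted tumour livers, 686 to 1300 CPM in tumour-bearing WT livers and 832 to 2037 CPM in control WT livers. Stat3-deleted tumour replicate 6 had the lowest sum of its group on both lists, 1302 CPM of interferon-inducible genes and 845 CPM of Kupffer cell genes. Replicate 3 of that group had 2408 CPM of interferon-inducible genes and the second highest Kupffer cell sum, 1405 CPM. Acute-phase genes summed to 12933 to 14754 CPM in Stat3-deleted tumour livers, 36608 to 155525 CPM in tumour-bearing WT livers and 12573 to 17127 CPM in control WT livers. WT tumour replicate 4 had the highest sum of its group on both lists, and replicate 6 had 111305 CPM of acute-phase genes with the lowest Kupffer cell sum of its group, 844 CPM.

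**Figure D5:**
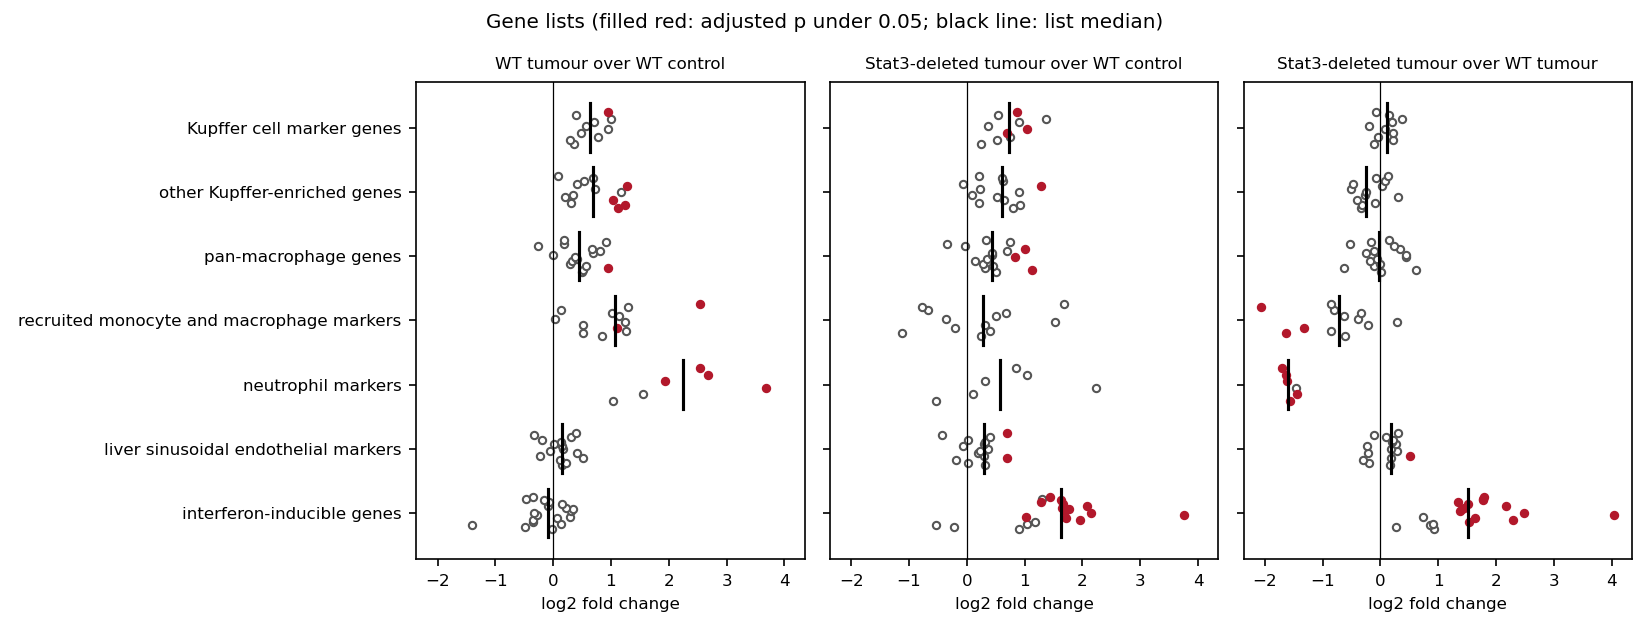
Log2 fold change of each tested gene (x axis) in 7 gene lists (rows), for tumour-bearing WT over control WT (left), Stat3-deleted tumour over control WT (middle) and Stat3-deleted tumour over tumour-bearing WT (right), with filled red points past the test and a black line at the list median. The Kupffer cell medians are 0.64, 0.72 and 0.12 in these panels, and the interferon-inducible medians -0.09, 1.63 and 1.51.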

How the data were processed

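Whole-liver RNA came from tissue stored in TRIzol and purified with RNeasy Mini kits, and libraries followed the Lexogen QuantSeq 3′ FWD protocol, per the labels' protocols. STAR aligned the reads to mm10, per the submitters' processing notes. For the counter, the annotation and the strand, no setting was found in the labels, so overlapping and antisense reads cannot be told apart. The authors deposited raw counts per gene symbol in 1 table of 24421 rows. 27 rows named by dates (0.103 to 0.166% of reads) were left out.

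All 18 libraries were fitted together in edgeR 4.0.16 (R 4.3.3, TMM scaling, filterByExpr, quasi-likelihood test, 1 term per group), which kept 11218 genes. P-values were adjusted over these by Benjamini-Hochberg, and a call needs an adjusted p under 0.05. The SE is the size of the log2 fold change over the root of F. CPM use TMM-scaled library totals. The code of the fit was tried on counts simulated from its own model, which does not check how well that model holds for these livers. DESeq2 1.42.0 and limma 3.58.1 (voom) were alternatives, with other scalings and filters, a replicate block, runs of label numbers and fits without 1 library. Genes, lists and tests were chosen with earlier results of these data known. Named were all 10 genes, those most like the 10, and called genes of the other lists, with exceptions marked. The called genes came from the up to 4 per list and comparison with the smallest adjusted p, and not all of these are named. The common biological coefficient of variation was 0.281. Some results are not reported here.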

Additional observations from a re-analysis of the deposited data

Results flagged for a closer look

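Replicate 5 of the Stat3-deleted tumour livers stood far from the other 5 for 3 of the 10 genes. It had 249 CPM of Marco, with the others at 39.8 to 118 CPM, 348 CPM of Csf1r, with the others at 103 to 168 CPM, and 68.4 CPM of Adgre1, with the others at 28.4 to 42.4 CPM. Chance marks about 1 in 20 groups this way where values are normally distributed, which was not checked for these CPM. 30 groups were looked at (10 genes in 3 groups). They are not independent, since the 10 genes correlate between the same livers, so the 3 marks cannot be weighed against that rate. Its library total, 9545442 reads, was the largest of the 18. It was also the highest of its group for all 10 genes. Without it, the median log2 difference of the 10 genes was -0.11 in Stat3-deleted against WT tumour livers. Against control WT livers it was 0.61, and C1qc (edgeR adjusted p = 0.0605), Vsig4 (0.0793) and Cd5l (0.119) no longer passed the test.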

How the results depend on the processing

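The median of the 10 genes against control WT livers was above 0 in every fit run. By edgeR, 252 genes passed in tumour-bearing WT against control WT livers (DESeq2 462, the 2 groups alone 128, label-number run as a block 126, within the lower run 38, within the higher run 50), of the 10 genes 1 (DESeq2 2, replicate block 2, library totals 0, within either run 0). In Stat3-deleted against WT tumour livers 686 passed (voom 1097, lower run alone 1063), of the 10 genes 0. In Stat3-deleted tumour against control WT livers 544 passed (DESeq2 860, voom 1318, the 2 groups alone 894, without replicate 5 of each group 181, lower run alone 280), of the 10 genes 3 (DESeq2 5, voom 6, replicate block 6, library totals 0, without replicate 5 of each group 0, lower run alone 0). Where 0 of the 10 passed against control WT livers, 2 to 7 had an unadjusted p under 0.05. The shares of all genes at that p are not given for those fits, so these counts cannot be weighed against a background. In the main edgeR fit, 16.2% of genes were at that p in either direction when WT tumour livers were set against controls. With Stat3-deleted tumour livers in their place it was 20.8%. Leaving out replicate 5 of each group, and the lower run alone for the Stat3-deleted livers, were chosen after seeing the data. Without each replicate in turn the counts ran over 132 to 462, 469 to 906 and 258 to 783 genes, and over 0 to 3, 0 to 0 and 0 to 5 of the 10. Library totals moved the median of all genes by -0.19, 0.07 and -0.12 in that order of comparisons. The share of calls that were higher was 39.4%, 61.1% and 27.2% with library totals, against 78.2%, 47.2% and 45.2% with TMM, and the medians of the 10 genes were 0.46, 0.17 and 0.59 with totals. Replicate numbers did not pair the livers as a whole: at most 2 of 6 livers of a group correlated best with their own number. Replicate 5 was an exception in part, at Pearson's r of 0.31, 0.19 and 0.17 in the 3 comparisons, on group-centred log2 CPM. Replicate 6 was at 0.21 in the second comparison, and all other values were under 0.1. The replicate block added Cd5l in the first comparison and Marco, Csf1r and C1qb in the third.

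Directions turned only in log2 differences that no fit called. Without each replicate in turn, Stat3-deleted against WT tumour livers gave -0.21 to 0.06 for Vsig4 (highest 0.058), -0.13 to 0.31 for Cd5l, -0.014 to 0.61 for Marco, -0.10 to 0.36 for Csf1r (lowest -0.098), -0.32 to 0.0018 for Adgre1 and -0.18 to 0.12 for C1qb. Without replicate 5 of each group Cd5l was at -0.17, Marco at -0.087, Csf1r at -0.023 and Timd4 at -0.0061. C1qb was at 0.040 with library totals and at 0.15 in the lower run alone. In Stat3-deleted tumour against control WT livers Adgre1 was at -0.069 without replicate 5 of each group and at -0.15 in the lower run alone. The cause was not tested.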
